A study of Rattus norvegicus with 21 samples.

Results

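The transcripts of the first 0.5 h after fibroblast growth factor 1 (FGF1) were measured in rat bladder carcinoma cells of the epithelial line NBTII and of its derivative NBTII-FGFR1, which carries a transfected FGF receptor 1. Of the 21 arrays of the series, 5 carry this comparison: those whose titles give 30 min of FGF1 (1 NBTII-FGFR1 and 1 NBTII) and those whose titles give 0 min (2 NBTII-FGFR1 and 1 NBTII). The cells at 0.5 h had received FGF1 at 20 ng/ml with heparin, and those at 0 h are labelled as control cells. No array at 0.5 h lacks FGF1, so the ligand, the heparin and the handling cannot be told apart. The promoter of the transfected receptor and whether the line is 1 clone were not given in the sources used here, nor whether the arrays came from separate cultures. The other 16 arrays, at 2, 6, 24 and 48 h, entered the fit for their spread between arrays and are described here only to follow the 0.5 h genes in time. The series as a whole concerns carcinoma cells during an epithelial to mesenchymal transition, and 0.5 h is its earliest time after FGF1.

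FGF1 binds receptor tyrosine kinases together with heparan sulfate or heparin, and the receptor activates the RAS-ERK cascade. ERK and related kinases phosphorylate transcription factors that are already present, such as the ternary complex factors that act with SRF, and CREB. The genes these factors switch on within minutes, without new protein, are the immediate-early genes. They encode the AP-1, EGR and NR4A transcription factors, together with inhibitors that end the response. These inhibitors include MAP kinase phosphatases and RNA-binding proteins that speed the decay of the new mRNAs. NF-kB is another transcription factor, and the gene of its inhibitor IκBα is a target of NF-kB itself.

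The values are log2 signal intensities, so a difference of 1 is a 2-fold change of signal. Of 15866 probe sets tested with limma over all arrays, 349 (2.2%) differed between 0.5 h and 0 h averaged over both lines at a Benjamini-Hochberg adjusted p of 0.05: 267 were higher at 0.5 h (1.68%) and 82 were lower (0.517%). The 0 h library labelled NBTII-FGFR1 replicate 1 read 3.57 for Fgfr1 itself, the level of parental cells, and its label is therefore doubted. Over all probe sets it correlated at r = 0.995 with the other NBTII-FGFR1 array of 0 h and at 0.992 with the NBTII array of 0 h, a description of these arrays. NBTII-FGFR1 read 7.50 and NBTII 3.77 for Fgfr1 at 0.5 h, against 5.92 in the second NBTII-FGFR1 array and 3.97 in NBTII at 0 h. Without the doubted library 184 probe sets passed, 161 higher (1.01%) and 23 lower (0.145%). Of the calls made with it, 157 of the 267 higher and 21 of the 82 lower ones were also made without it, and every one of the 349 kept its sign. The median difference of the 267 was 0.92 with that library and 0.90 without it, and that of the 82 was -0.63 and -0.60. Both fits share the other arrays of the comparison, and the calls favour large differences. Kept signs and near medians therefore only describe the calls. Where a probe set printed with its difference over both lines was called only with that library, its adjusted p-value or difference without it follows.

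The rise was the larger side of the change. Among the higher probe sets 119 differed by at least 1 and 34 by at least 2, whereas 6 of the lower ones differed by at least 1 and 0 by at least 2. In 252 of the 267 both 0.5 h arrays lay above the 3 arrays of 0 h, an order that 11.7% of all probe sets had, and in 79 of the 82 both lay below them, an order that 17.2% had. Both lines moved the same way in 261 and 81 of them. The calls are computed from these same arrays and favour such orders and equal directions, so these counts only describe the called probe sets. Counted with 1 probe set per gene, 197 of 10411 genes were higher (1.89%) and 49 lower (0.471%), and the median difference over all genes was -0.03. The poly-A spikes, RNAs added before labelling (24 probe sets), averaged 5.96 (NBTII-FGFR1) and 5.91 (NBTII) at 0.5 h, against 6.65 and 6.49 (NBTII-FGFR1) and 7.07 (NBTII) at 0 h. The 3 arrays of 0 h thus stood above both 0.5 h arrays and above the later ones, which lay between 5.58 and 6.02. The hybridization spikes, a second kind of control (18 probe sets), averaged 9.48 (NBTII-FGFR1) and 9.38 (NBTII) at 0.5 h. At 0 h they averaged 9.79 and 9.70 (NBTII-FGFR1) and 9.66 (NBTII), with later arrays between 9.29 and 9.71. The part of these differences in the results was not tested. Array medians lay between 6.13 and 6.22. Of the epithelial markers, the basal keratin gene Krt5 read 12.93 (NBTII-FGFR1) and 12.56 (NBTII) at 0.5 h, against 12.49 and 12.71 (NBTII-FGFR1) and 12.53 (NBTII) at 0 h. Krt19 lay between 3.57 and 3.86 in the 5 arrays, under their lower quartiles (4.36 to 4.54). In RNA of whole cultures, fewer cells of a type and less RNA per cell cannot be told apart.

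Promoters of 6 of the genes described below are shown because they carry short sequences bound by the factors named above. Each is the 250 bases before the RefSeq gene start in GRCr8, written 5′ to 3′ along the gene, with the match in capitals. Egr2 and Zfp36 hold a CArG box, the element SRF binds; Dusp1 and Ier2 hold a cyclic AMP response element (CRE), which CREB and ATF proteins bind; Nfkbia and Cxcl1 hold a kappa-B site, which NF-kB binds.
Egr2 (chr20:21054442-21054691, minus strand): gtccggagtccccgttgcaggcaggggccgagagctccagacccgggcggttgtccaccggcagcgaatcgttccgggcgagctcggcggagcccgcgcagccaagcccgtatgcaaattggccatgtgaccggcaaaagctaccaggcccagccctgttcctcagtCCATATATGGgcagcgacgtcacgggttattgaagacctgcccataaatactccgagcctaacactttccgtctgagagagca
Zfp36 (chr1:92799109-92799358, minus strand): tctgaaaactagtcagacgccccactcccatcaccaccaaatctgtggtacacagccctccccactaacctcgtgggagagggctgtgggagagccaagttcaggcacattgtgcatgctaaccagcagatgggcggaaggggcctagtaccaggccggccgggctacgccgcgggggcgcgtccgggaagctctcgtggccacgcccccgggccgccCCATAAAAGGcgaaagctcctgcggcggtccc
Dusp1 (chr10:17184603-17184852, plus strand): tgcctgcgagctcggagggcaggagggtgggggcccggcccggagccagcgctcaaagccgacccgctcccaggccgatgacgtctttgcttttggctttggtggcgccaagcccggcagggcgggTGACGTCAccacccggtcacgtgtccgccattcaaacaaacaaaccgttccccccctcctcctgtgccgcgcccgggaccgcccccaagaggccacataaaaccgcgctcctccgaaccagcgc
Ier2 (chr19:40399123-40399372, plus strand): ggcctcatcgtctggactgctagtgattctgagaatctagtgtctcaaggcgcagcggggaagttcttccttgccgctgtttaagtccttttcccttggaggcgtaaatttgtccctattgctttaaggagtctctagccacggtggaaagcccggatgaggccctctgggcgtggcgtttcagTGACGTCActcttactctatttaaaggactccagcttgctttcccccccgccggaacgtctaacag
Nfkbia (chr6:78597073-78597322, minus strand): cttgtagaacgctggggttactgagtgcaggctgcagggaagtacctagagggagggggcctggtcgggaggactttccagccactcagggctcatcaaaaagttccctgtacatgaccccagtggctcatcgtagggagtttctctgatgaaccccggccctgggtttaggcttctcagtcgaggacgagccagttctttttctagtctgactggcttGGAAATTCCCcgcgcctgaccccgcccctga
Cxcl1 (chr14:17479322-17479571, minus strand): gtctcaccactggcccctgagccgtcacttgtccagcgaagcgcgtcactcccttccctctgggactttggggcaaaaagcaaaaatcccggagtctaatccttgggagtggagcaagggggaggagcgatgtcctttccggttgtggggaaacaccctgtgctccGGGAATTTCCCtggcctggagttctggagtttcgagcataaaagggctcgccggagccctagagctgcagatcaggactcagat
Such an upstream window was found for 8630 of the 10411 genes, for 174 of the 210 genes with a probe set called higher and for 46 of the 61 with one called lower. The CRE (TGACGTCA) was in 15 of the 174 rising genes (8.62%), in 1 of the 46 falling genes (2.17%) and in 2.65% of all windows. A CArG box was in 5 rising genes (2.87%: Egr1, Egr2, Zfp36, Klf6 and Mideas, the last not called without the doubted library at an adjusted p of 0.0854), in 0 falling genes and in 1.3% of all. Rising genes with an AP-1 site (TGANTCA) numbered 11 (6.32%), beside 3 falling genes (6.52%) and 4.9% of all. A kappa-B site was in 17 rising genes (9.77%), 1 falling gene (2.17%) and 8.31% of all. By their letters an AP-1 and a CRE match share no base, whereas a CArG box and a kappa-B site may share the bases at their ends. All 4 were searched on both strands. These are letter matches in a window and not tests of binding.

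AP-1 is a dimer of FOS and JUN family proteins, and 6 of its 8 measured subunit genes rose, against 1.89% of all genes. The median of the 8 was 2.21. Fos read 11.09 (NBTII-FGFR1) and 10.68 (NBTII) at 0.5 h, against 9.52 and 9.03 (NBTII-FGFR1) and 4.90 (NBTII) at 0 h. Fosb read 7.52 (NBTII-FGFR1) and 8.45 (NBTII) at 0.5 h, against 4.46 and 4.46 (NBTII-FGFR1) and 3.94 (NBTII) at 0 h. Atf3 read 9.27 (NBTII-FGFR1) and 9.94 (NBTII) at 0.5 h, against 6.85 and 6.01 (NBTII-FGFR1) and 5.11 (NBTII) at 0 h. Both 0.5 h arrays stood above all 3 arrays of 0 h for each of the 3 genes, but Fos was already high in the NBTII-FGFR1 arrays at 0 h, whereas Fosb was low in every array of 0 h. The differences averaged over the lines were 3.80 ± 0.37 for Fos, 3.79 ± 0.19 for Fosb and 3.83 ± 0.52 for Atf3 (± SE, limma; adjusted p 5.65e-05, 7.77e-08 and 0.000914). A second Fos probe set differed by -0.15 and was not called. Jun rose by 2.31 ± 0.21, with its other 2 probe sets also higher. Junb rose by 1.76 ± 0.25 and Fosl1, which encodes FRA-1, by 2.10 ± 0.18. Jund (0.18) and Fosl2 (0.14) were not called. All 6 calls were also made without the doubted library.

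The zinc finger factors of the EGR family and the orphan nuclear receptors of the NR4A family are the other classical group. Of 8 measured members 5 rose, against 1.89% of all genes, with a median of 1.63. Egr1 read 11.26 (NBTII-FGFR1) and 11.36 (NBTII) at 0.5 h, against 9.79 and 9.63 (NBTII-FGFR1) and 6.71 (NBTII) at 0 h. Nr4a1 read 8.49 (NBTII-FGFR1) and 10.26 (NBTII) at 0.5 h, against 6.19 and 5.61 (NBTII-FGFR1) and 5.82 (NBTII) at 0 h. Egr2 read 7.63 (NBTII-FGFR1) and 6.63 (NBTII) at 0.5 h, against 4.22 and 4.28 (NBTII-FGFR1) and 4.16 (NBTII) at 0 h. The 3 genes had both 0.5 h arrays above every 0 h array, and they differed in the line with the higher 0.5 h level: NBTII for Nr4a1, NBTII-FGFR1 for Egr2, and neither by much for Egr1. Averaged over the lines the differences were 3.10 ± 0.43 for Egr1, 3.51 ± 0.25 for Nr4a1 and 2.93 ± 0.38 for Egr2 (± SE; adjusted p 0.000984, 3.27e-06 and 0.000711, limma). A second Egr2 probe set gave 0.55 and was not called. Nr4a3 averaged a rise of 2.45 ± 0.40, made up of 1.02 in NBTII-FGFR1 and 3.87 in NBTII, and its second probe set (0.34) was not called. Nr4a2 rose by 0.81 ± 0.15. Egr3 (-0.17), Egr4 (0.06) and the EGR corepressor gene Nab2 (0.09) were not called. The 5 calls held without the doubted library.

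**Figure D1:**
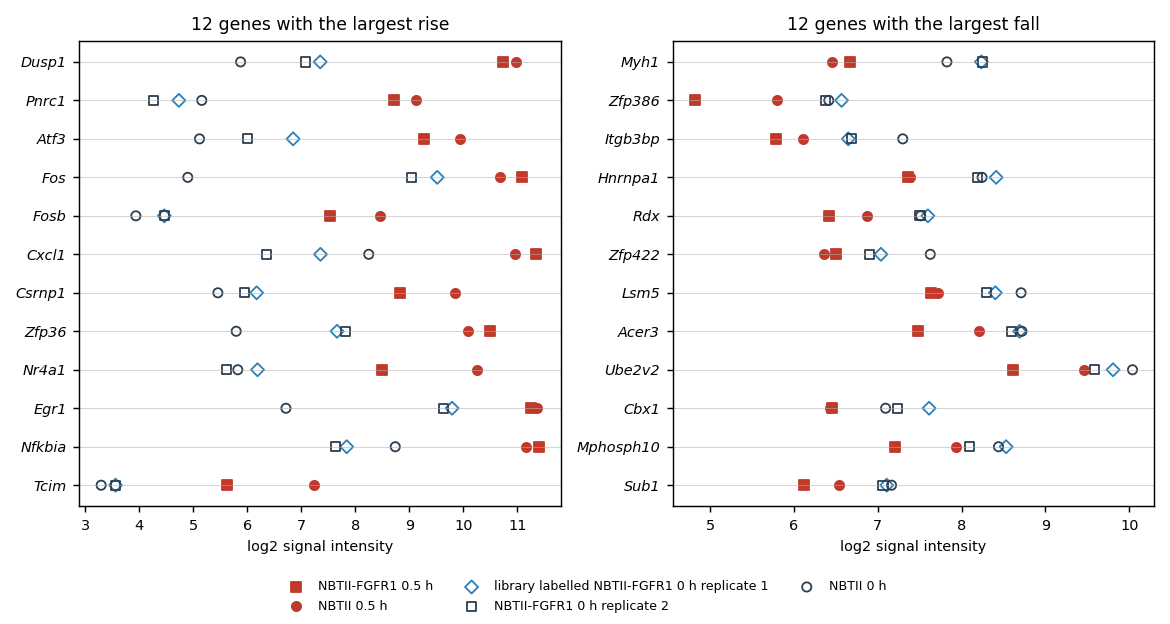
Log2 signal of the 12 genes with the largest rise (left) and the 12 with the largest fall (right) in the 5 arrays. Filled red symbols are the 0.5 h arrays and open symbols the 0 h arrays, squares NBTII-FGFR1 and circles NBTII, with a blue diamond for the doubted 0 h library. The genes were chosen among called probe sets whose 0.5 h and 0 h arrays do not overlap, so the separation of filled and open symbols follows from the choice. The rises (up to 4.32 for Dusp1) are larger than the falls (up to -1.47 for Myh1).

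Other immediate-early genes rose in 15 of 37 cases, against 1.89% of all genes, with a median of 0.64 and 0 falls. Without the doubted library 13 of the 37 were higher. Pnrc1 read 8.71 (NBTII-FGFR1) and 9.13 (NBTII) at 0.5 h, against 4.73 and 4.26 (NBTII-FGFR1) and 5.16 (NBTII) at 0 h. Pnrc1, whose product is a coactivator of nuclear receptors, thus differed by 4.09 ± 0.54 (adjusted p 0.000726, limma), although its second probe set differed by 0.01. Csrnp1 read 8.82 (NBTII-FGFR1) and 9.85 (NBTII) at 0.5 h, against 6.17 and 5.94 (NBTII-FGFR1) and 5.45 (NBTII) at 0 h. Csrnp1, a nuclear protein gene first found as induced by AXIN1, rose by 3.58 ± 0.36. Rhob, a small GTPase gene, rose by 2.28 ± 0.30. Ier2 read 11.21 (NBTII-FGFR1) and 10.84 (NBTII) at 0.5 h, against 9.47 and 9.37 (NBTII-FGFR1) and 8.41 (NBTII) at 0 h, and Ier2, whose upstream window with its CRE is printed above, rose by 2.11 ± 0.21. The apoptosis regulator gene Ier3 rose by 2.04 ± 0.21, with 12.74 (NBTII-FGFR1) and 12.27 (NBTII) at 0.5 h, against 10.40 and 10.53 (NBTII-FGFR1) and 10.47 (NBTII) at 0 h. Nfil3 (1.64), Tiparp (1.43), the prostaglandin synthase gene Ptgs2 (1.42), Rgs2 (1.07), Mafk (1.01), Ier5 (0.99), Pim3 (0.69) and the endothelin gene Edn1 (0.64) also rose. Trib1 (1.77, and 1.71 without the doubted library) and Cebpb (1.15, and 1.16 without it) were called only with that library. Irf1 differed by 2.17 and Bhlhe40 by 1.90 without passing (adjusted p 0.0518 and 0.0736, limma). The SRF gene itself (0.29), Mcl1 (0.19), Ccn2 (-0.01) and Id2 (-0.65) were not called.

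Kruppel-like factors, zinc finger regulators of epithelial growth and differentiation, rose in 5 of 9 cases, against 1.89% of all genes, with a median of 0.96. Klf6 rose by 1.77 ± 0.17, Klf10 by 1.17 ± 0.14 and Klf4 by 1.11 ± 0.10. The calls of Klf9 (1.40) and Klf5 (0.62) were lost without the doubted library (adjusted p 0.0718 and 0.104). Tcim, a small regulator of transcription and of Wnt signalling in human cells, belonged to no list and was among the 12 largest rises. Tcim read 5.61 (NBTII-FGFR1) and 7.23 (NBTII) at 0.5 h, against 3.56 and 3.56 (NBTII-FGFR1) and 3.29 (NBTII) at 0 h. It was low in all arrays of 0 h, and its 0.5 h level was higher in NBTII (difference 3.0 ± 0.29).

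Dusp1 encodes a phosphatase that inactivates MAP kinases, and it had the largest difference of all named genes. Dusp1 read 10.74 (NBTII-FGFR1) and 10.98 (NBTII) at 0.5 h, against 7.35 and 7.07 (NBTII-FGFR1) and 5.87 (NBTII) at 0 h. The 0.5 h arrays lay close together and every 0 h array stood far below them, and the difference was 4.32 ± 0.35 (adjusted p 1.04e-05, limma). The second Dusp1 probe set gave 3.95 ± 0.32. Among 11 measured genes of ERK feedback 4 rose, against 1.89% of all genes, with a median of 0.49, and 3 of the 4 also without the doubted library. The 4 were Dusp1, the EGF receptor inhibitor gene Errfi1 (1.27 ± 0.29, adjusted p 0.0688 without the doubted library, limma), Spry1 (1.0 ± 0.25) and the ERK target Ets2 (0.97 ± 0.16). Spry1 encodes a Sprouty inhibitor of receptor signalling. Dusp6, the phosphatase gene that usually reports FGF signalling, read 11.93 (NBTII-FGFR1) and 11.18 (NBTII) at 0.5 h, against 11.39, 11.82 (NBTII-FGFR1) and 10.72 (NBTII) at 0 h, and was not called (0.39). Dusp5 (1.16), Dusp4 (0.38) and Spry2 (0.49) did not pass either.

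Zfp36 encodes tristetraprolin, which binds AU-rich elements and hastens the decay of cytokine and immediate-early mRNAs. Zfp36 read 10.48 (NBTII-FGFR1) and 10.09 (NBTII) at 0.5 h, against 7.66 and 7.82 (NBTII-FGFR1) and 5.79 (NBTII) at 0 h. All 0 h arrays stood lower, and Zfp36 rose by 3.52 ± 0.21 (adjusted p 4.05e-07, limma). Of the 7 measured mRNA decay and antiproliferative genes 3 rose, against 1.89% of all genes, with a median of 0.76. The 3 were Zfp36, Tob1 (1.39 ± 0.25) and Btg1 (0.76 ± 0.16, adjusted p 0.0665 without the doubted library, limma). Zfp36l1 (0.84) and Zfp36l2 (0.58), paralogues of Zfp36, were not called.

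Nfkbia encodes IκBα, the inhibitor that holds NF-kB in the cytoplasm and is itself a target of NF-kB. Nfkbia read 11.40 (NBTII-FGFR1) and 11.16 (NBTII) at 0.5 h, against 7.84 and 7.63 (NBTII-FGFR1) and 8.74 (NBTII) at 0 h. Here the 0 h level was lower in NBTII-FGFR1 than in NBTII, unlike Fos or Egr1, and the difference over both lines was 3.04 ± 0.33 (adjusted p 0.00012). In the list of 25 measured cytokines, chemokines and NF-kB targets 7 rose, against 1.89% of all genes, with a median of 0.38 and 0 falls. Of the 7, 3 were called without the doubted library. Cxcl1 read 11.34 (NBTII-FGFR1) and 10.96 (NBTII) at 0.5 h, against 7.35 and 6.35 (NBTII-FGFR1) and 8.25 (NBTII) at 0 h. Cxcl1, a chemokine that attracts neutrophils, was high in both 0.5 h arrays and lay between 6.35 and 8.25 in the 0 h arrays, and its difference of 3.60 ± 0.81 passed with the doubted library (adjusted p 0.031) and not without it (0.0556). Cxcl2, its close relative, differed by 2.70 ± 0.60 with the same outcome (adjusted p 0.0602 without). Icam1, a leukocyte adhesion molecule gene, rose by 2.73 ± 0.44 and Il6 by 1.80 ± 0.31, and Il6 read 4.67 (NBTII-FGFR1) and 5.55 (NBTII) at 0.5 h, against 3.47 and 3.48 (NBTII-FGFR1) and 3.15 (NBTII) at 0 h. Rela (0.56) and Tnf (0.46) were called only with the doubted library (adjusted p 0.096 and 0.126 without). Cxcl10 (2.04), Ccl20 (1.13) and Nfkb2 (0.78) were not called, and Il1b differed by 0.09.

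Hbegf, which encodes heparin-binding EGF-like growth factor, rose by 1.77 ± 0.28, with 8.54 (NBTII-FGFR1) and 7.95 (NBTII) at 0.5 h, against 7.47, 7.38 (NBTII-FGFR1) and 5.54 (NBTII) at 0 h. Areg, the gene of amphiregulin, differed by 1.22 ± 0.27 with overlapping arrays and was not called without the doubted library (adjusted p 0.0951). These were the 2 of 9 EGF receptor and ligand genes called (median 0.36), beside 2.36% of all genes called in either direction. Ereg (1.06) and Tgfa (0.40) were not. Of 20 measured plasminogen activator, metalloproteinase and inhibitor genes 4 rose (median 0.20), against 1.89% of all genes. Plau read 9.44 (NBTII-FGFR1) and 9.28 (NBTII) at 0.5 h, against 8.14 and 8.17 (NBTII-FGFR1) and 7.21 (NBTII) at 0 h. Plaur read 7.98 (NBTII-FGFR1) and 8.48 (NBTII) at 0.5 h, against 6.91 and 7.22 (NBTII-FGFR1) and 5.70 (NBTII) at 0 h. Plau, the urokinase gene, and Plaur, the gene of its receptor, both had every 0.5 h array above every 0 h array, with differences of 1.68 ± 0.24 and 1.85 ± 0.32 (adjusted p 0.00121 and 0.00634, limma). A second Plau probe set was called as well (1.32), and a second Plaur probe set was not (0.57). Mmp13, a collagenase gene, differed by 2.07 ± 0.48 and the protease inhibitor gene Serpine2 by 0.94 ± 0.20, neither called without the doubted library (adjusted p 0.113 and 0.0659). Mmp9 (0.13) and Mmp3 (0.27) were not called.

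Of 11 measured genes of FGF receptors, ligands and coreceptors 1 passed, beside 2.36% of all genes called in either direction. The heparan sulfate proteoglycan gene Sdc1 rose (0.73 ± 0.10), and the median was 0.17. Fgfr2 differed by 0.16, Fgfr3 by -0.19 and Fgfr4 by 0.01. Fgfr1 differed by 1.28 ± 0.53 (adjusted p 0.25), a value that rests on the transfected line and on its unequal 0 h arrays. Signal of the transfected receptor and of the cells' own gene cannot be told apart here.

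Of 17 measured genes of the integrated stress and unfolded protein responses 7 rose, against 1.89% of all genes, and 10 did not pass. Their median was 0.88, with every one of the 17 differences above 0, and 4 were called without the doubted library. By line the median was 0.84 in NBTII-FGFR1 and 0.99 in NBTII. In 16 of the 17 both NBTII-FGFR1 arrays of 0 h lay above the single NBTII array of 0 h, beside 3541 of 10411 genes. A low reading of that array favours a positive difference. Ppp1r15a read 10.73 (NBTII-FGFR1) and 10.50 (NBTII) at 0.5 h, against 8.59 and 8.72 (NBTII-FGFR1) and 7.88 (NBTII) at 0 h. Dnajb9 read 8.70 (NBTII-FGFR1) and 9.13 (NBTII) at 0.5 h, against 6.96 and 6.62 (NBTII-FGFR1) and 6.48 (NBTII) at 0 h. Ddit4 read 10.21 (NBTII-FGFR1) and 9.28 (NBTII) at 0.5 h, against 7.45 and 7.83 (NBTII-FGFR1) and 7.46 (NBTII) at 0 h. Ppp1r15a encodes GADD34, which restores translation after eIF2α phosphorylation, Dnajb9 an endoplasmic reticulum cochaperone, and Ddit4 the mTORC1 inhibitor REDD1. All 3 stood above every 0 h array, with differences of 2.35 ± 0.33, 2.28 ± 0.38 and 2.19 ± 0.46 in that order (adjusted p 0.00126, 0.005 and 0.0218; 0.0691 for Ddit4 without the doubted library). Vegfa (1.20 ± 0.18) and Atf5 (1.14 ± 0.21) rose, while Hspa5 (1.21) and Asns (0.88) were called only with that library (adjusted p 0.0891 and 0.148 without). Ddit3 (0.29) and Atf4 (0.63) were not called. Of 10 heat shock genes 1 was called, beside 2.36% of all genes: Hmox1, the haem oxygenase gene, rose (1.36 ± 0.25). Hspa1a differed by -0.03.

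Over all genes, with 1 probe set each, 2.36% were called in either direction. In lists of this size counts of 0 or 1 lie near that share. Of 7 genes of MYC and its antagonists 0 passed, with Myc itself at 9.96 (NBTII-FGFR1) and 9.36 (NBTII) at 0.5 h, against 10.32, 10.24 (NBTII-FGFR1) and 9.53 (NBTII) at 0 h (-0.25; adjusted p 0.377). Its antagonists Mxd1 (0.88), Mnt (0.75), Mxd4 (0.70) and Mxi1 (0.64) had positive differences that did not pass. Of 9 G1 cyclin genes 0 passed, Ccnd1 differing by 0.55 (adjusted p 0.12), and of 22 DNA replication genes 0 passed, with a median of -0.07. Among 14 mitosis genes 13 differences were negative, with a median of -0.18 (-0.03 over all genes), and 1 passed, that of the centromere protein gene Itgb3bp. The mitosis median was -0.04 in NBTII-FGFR1 and -0.39 in NBTII, which has a single array of 0 h. Both NBTII-FGFR1 arrays of 0 h lay above that array in 1 of the 14, beside 3541 of 10411 genes. The mesenchymal markers were 0 of 13, with a median of -0.07: Vim differed by -0.23, Cdh2 by -0.04, Snai1 by -0.07 and Fn1 by 0.77 (adjusted p 0.137, limma). The Vim value averages 1.53 in NBTII-FGFR1 and -1.98 in NBTII, a line difference (3.51) that was not called. Its NBTII-FGFR1 arrays of 0 h read 5.41 (the doubted library) and 7.55, and without that library Vim differed by -0.76. In the TGF-beta and BMP list 0 of 13 passed. Of the epithelial junction genes, Cldn4 (1.09 ± 0.23), Dsp (0.61 ± 0.14) and Dsc2 (0.75 ± 0.18) were higher at 0.5 h with the doubted library and not without it (adjusted p 0.0614, 0.0841 and 0.0688). Cdh1, the E-cadherin gene, differed by 0.63 and did not pass. Of 14 SRF and actin genes only Flna was called (0.78 ± 0.15), while Tagln (-0.52), Tpm1 (-0.91) and Vcl (0.10) were not. In the polyamine list the synthesis gene Odc1 (0.61 ± 0.14) and the catabolic gene Sat1 (1.03 ± 0.19) were higher and Sms (-0.52 ± 0.12) was lower, of which Sat1 alone passed without the doubted library (adjusted p 0.0981 for Odc1 and 0.0921 for Sms). Mdm2, the p53 inhibitor gene, rose by 0.80 ± 0.16, and Cdkn1a (0.95) did not pass.

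**Figure D2:**
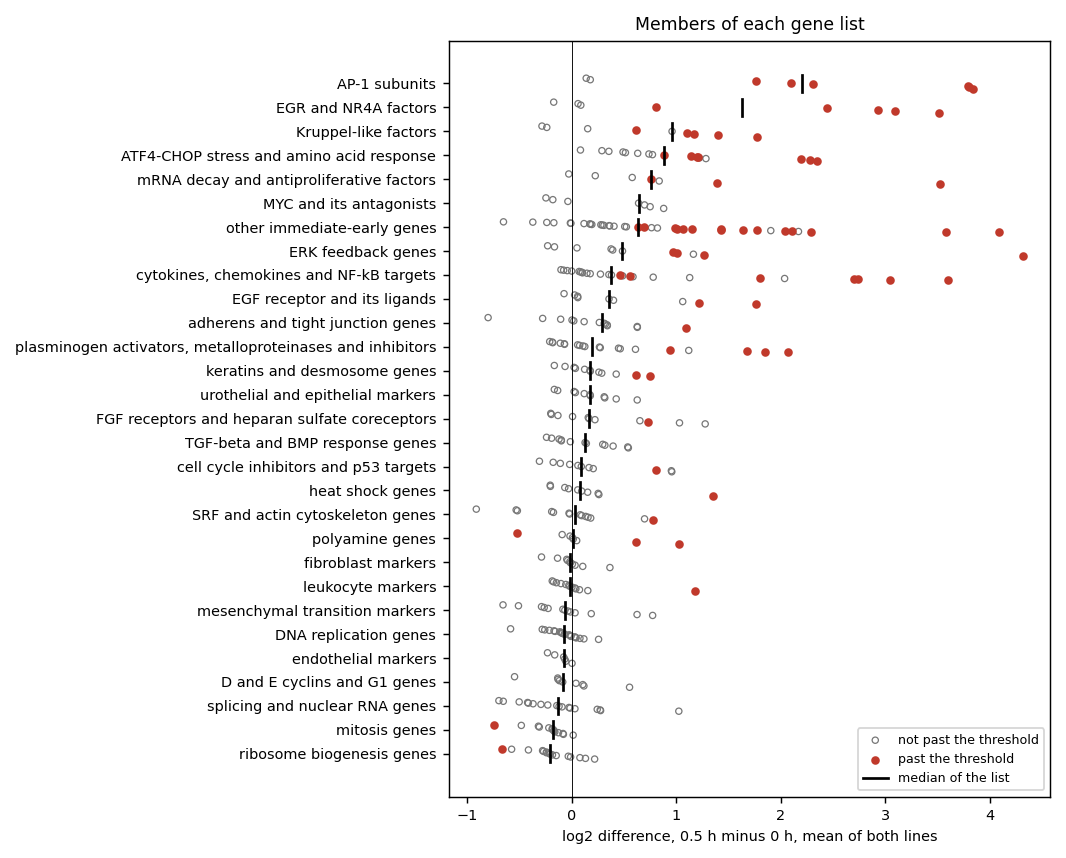
Each point is 1 measured gene of a list, at its log2 difference between 0.5 h and 0 h averaged over both lines, with filled red points past the adjusted p threshold of 0.05 and black bars at list medians. Lists are ordered by median, from AP-1 subunits (2.21) to ribosome biogenesis genes (-0.21).

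Markers of other cell types had 1 call in all, beside 2.36% of all genes called in either direction. The 10 measured fibroblast markers averaged 4.11 to 4.21 per array, with 6 of them under the lower quartile of every one of the 5 arrays, and 0 were called. The 6 endothelial markers averaged 4.44 to 4.65, with 4 under the lower quartile throughout, and 0 were called. Among them Egfl7 read 7.14 (NBTII-FGFR1) and 7.12 (NBTII) at 0.5 h, above the array medians (6.13 to 6.22). The leukocyte markers averaged 4.63 to 4.78, with 4 under the lower quartile throughout. Of these 13, Cd68 rose by 1.18 ± 0.12, with 6.42 (NBTII-FGFR1) and 6.68 (NBTII) at 0.5 h, against 5.46, 5.61 (NBTII-FGFR1) and 5.19 (NBTII) at 0 h. The pan-leukocyte marker Ptprc (CD45) differed by -0.10 and lay between 3.43 and 3.61 in the 5 arrays, under their lower quartiles. Cd14, another of the 13, lay between 7.29 and 8.55, above the array medians, and was not called (-0.19). Cd68 also encodes a lysosomal protein of other cells, and the part of leukocytes in its rise was not tested.

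The falls were smaller than the rises. Myh1 read 6.66 (NBTII-FGFR1) and 6.46 (NBTII) at 0.5 h, against 8.23 and 8.25 (NBTII-FGFR1) and 7.82 (NBTII) at 0 h. This probe set, annotated to the skeletal muscle myosin gene Myh1, differed by -1.47 ± 0.23 and is of a kind that can hybridize with related transcripts. Of the other 4 probe sets annotated to Myh1, 2 were lower, and their differences ran from -1.02 to 1.45. Zfp386 read 4.82 (NBTII-FGFR1) and 5.80 (NBTII) at 0.5 h, against 6.57 and 6.38 (NBTII-FGFR1) and 6.42 (NBTII) at 0 h. Itgb3bp read 5.78 (NBTII-FGFR1) and 6.11 (NBTII) at 0.5 h, against 6.65 and 6.69 (NBTII-FGFR1) and 7.30 (NBTII) at 0 h. Zfp386, a zinc finger gene, fell by 1.13 ± 0.20 (SE) and Itgb3bp, the gene of a centromere protein, by 1.04 ± 0.15. Itgb3bp was also called at its second probe set (-0.74; adjusted p 0.115 without the doubted library). In both genes the 0.5 h arrays lay under every 0 h array, which the choice of the 12 largest falls required. Rdx, which encodes radixin, a linker of actin to the membrane, fell by 0.88 ± 0.15, and the zinc finger gene Zfp422 by 0.87 ± 0.12. Acer3, an alkaline ceramidase gene, fell by 0.84 ± 0.15, Ube2v2, a ubiquitin conjugation factor gene, by 0.83 ± 0.13, and the transcription coactivator gene Sub1 by 0.80 ± 0.15. The other 4 of the 12 largest falls were called only with the doubted library: 1 Hnrnpa1 probe set (-0.90), the RNA-binding protein gene Lsm5 (-0.85), the heterochromatin protein gene Cbx1 (-0.82) and the ribosome biogenesis gene Mphosph10 (-0.81), with adjusted p of 0.0856, 0.0907, 0.0816 and 0.0628 without it. The other 2 Hnrnpa1 probe sets were not called. Nop58, a small nucleolar RNP gene, fell by 0.67 ± 0.11. It was the 1 called member of 16 ribosome biogenesis genes (median -0.21), beside 2.36% of all genes called.

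The response was then taken line by line. Within NBTII-FGFR1, 1 array against 2, 315 probe sets passed (1.99%), 155 higher (0.977%) and 160 lower (1.01%), and 49 passed without the doubted library (0.309%), 30 higher (0.189%) and 19 lower (0.12%). The largest rises were those of Cxcl1 (4.49), Pnrc1 (4.21), Dusp1 (3.68 at its second probe set), Nfkbia (3.67) and Egr2 (3.38). The largest falls were those of Tpr (-1.87), a nuclear pore gene, the kallikrein gene Klk6 (-1.75), and Syncrip (-1.67), Zfp386 (-1.66) and Pnn (-1.60). Without the doubted library 4 of these 10 genes did not pass, Cxcl1 at an adjusted p of 0.12, Tpr at 0.108, Klk6 at 0.126 and Zfp386 at 0.0557, and the comparison is then of 1 array against 1. Syncrip and Pnn encode proteins of pre-mRNA processing. Tpr read 6.15 (NBTII-FGFR1) and 8.08 (NBTII) at 0.5 h, against 8.36 and 7.68 (NBTII-FGFR1) and 7.60 (NBTII) at 0 h. Tpr was thus low in the 0.5 h NBTII-FGFR1 array alone, and over both lines it was not called (adjusted p 0.2). Among 18 splicing and nuclear RNA genes, 3 were lower within NBTII-FGFR1 and 0 over both lines, with medians of -0.50 in NBTII-FGFR1 and 0.16 in NBTII. Within NBTII, 1 array against 1 with the spread taken from the other groups, 236 probe sets passed (1.49%), 213 higher (1.34%) and 23 lower (0.145%), and 178 without the doubted library (1.12%).

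Over the 267 probe sets higher in both lines together, the median difference was 0.77 in NBTII-FGFR1 and 1.15 in NBTII, and 201 differed more in NBTII. The levels at 0 h differed as well. In 171 of the 267 both NBTII-FGFR1 arrays of 0 h lay above the NBTII array of 0 h, an order that 35.7% of all probe sets had. The median of NBTII-FGFR1 minus NBTII was -0.11 at 0.5 h and 0.25 at 0 h for these probe sets, against 0.01 and -0.01 over all probe sets. Fos shows it: NBTII-FGFR1 was above NBTII by 0.41 at 0.5 h and by 4.38 at 0 h. The single NBTII array of 0 h enters every one of these values, and no second NBTII array of 0 h was analysed here. A low reading of that array favours a call of higher, a larger difference in NBTII and this order at 0 h. The counts therefore describe only the called probe sets.

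**Figure D3:**
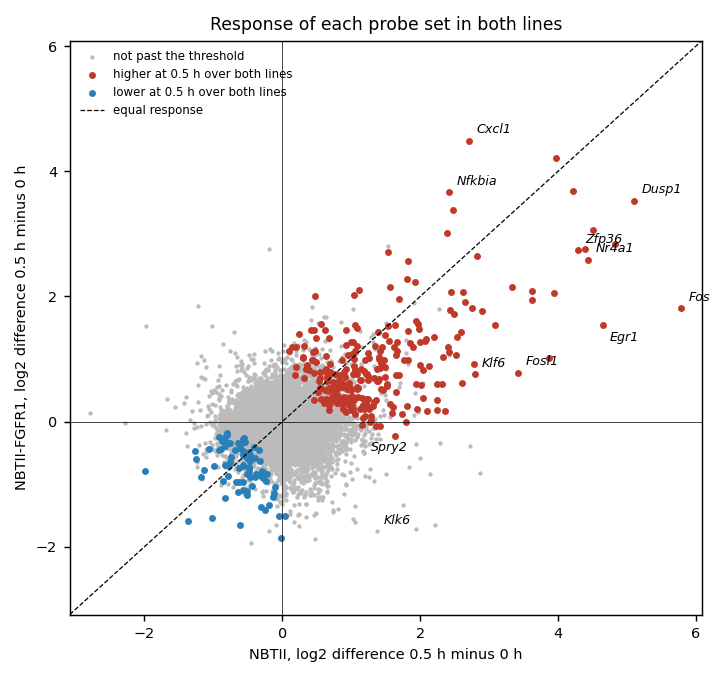
Log2 difference between 0.5 h and 0 h of every tested probe set, in NBTII-FGFR1 (vertical) and in NBTII (horizontal), with the dashed line at equal response. Red points were higher and blue points lower over both lines; 201 of the 267 red points lie below the dashed line, while Cxcl1 and Nfkbia lie above it.

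A test of the line difference itself, the NBTII-FGFR1 response minus the NBTII response, passed at 89 probe sets (0.561%), of which 72 were negative (0.454%) and 17 positive (0.107%). In 60 of the 72 the signal was lower at 0.5 h in NBTII-FGFR1 and higher in NBTII, and in 10 it was higher in both. In 68 of the 72 both NBTII-FGFR1 arrays of 0 h stood above the NBTII array, an order that 35.7% of all probe sets had. The tested difference is computed from these same arrays, so a negative call favours such orders, and the counts only describe the calls. Without the doubted library 13 passed (0.0819%), 2 positive (0.0126%) and 11 negative (0.0693%), all 11 being among the 72. Among immediate-early genes the difference passed for Fos (-3.97), Fosl1 (-2.64) and Klf6 (-2.03), and without the doubted library for Fosl1 alone (adjusted p 0.107, 0.0221 and 0.0735 for the 3 genes). Fosl1 read 9.93 (NBTII-FGFR1) and 10.46 (NBTII) at 0.5 h, against 9.01 and 9.28 (NBTII-FGFR1) and 7.04 (NBTII) at 0 h. The lines lay closer together at 0.5 h than at 0 h, where both NBTII-FGFR1 arrays were the higher. Spry2 (-1.40) read 5.97 (NBTII-FGFR1) and 5.63 (NBTII) at 0.5 h, against 6.07, 6.30 (NBTII-FGFR1) and 4.45 (NBTII) at 0 h, so that its difference was -0.21 in NBTII-FGFR1 and 1.19 in NBTII. Klk6 differed by -1.75 in NBTII-FGFR1 and 1.37 in NBTII. Neither gene passed without the doubted library (adjusted p 0.051 and 0.093). All 17 positive probe sets were higher at 0.5 h in NBTII-FGFR1 and lower in NBTII, an order that a positive call likewise favours. Tmsb4x read 11.54 (NBTII-FGFR1) and 10.46 (NBTII) at 0.5 h, against 10.28 and 10.61 (NBTII-FGFR1) and 11.14 (NBTII) at 0 h, and this actin-binding thymosin gene differed between the lines by 1.79. The line difference did not pass for Egr1 (-3.10; adjusted p 0.12), Nr4a1 (-1.85; 0.114), Dusp1 (-1.57; 0.391) or Nfkbia (1.25; 0.49).

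The later arrays place the 0.5 h change in time. Of the 267 higher probe sets, NBTII-FGFR1 had its highest group mean at 0.5 h in 69, at 2 h in 128 and at 48 h in 45, while NBTII had it at 0.5 h in 166, at 2 h in 57 and at 48 h in 21. The 2 NBTII-FGFR1 arrays of 2 h correlated at r = 0.988 with each other over all probe sets. Replicate 1 correlated best with the NBTII array of 0.5 h (0.990) and replicate 2 with NBTII replicate 2 of 2 h (0.993), a description of these arrays. Without replicate 1 of 2 h the NBTII-FGFR1 counts were 88 at 0.5 h, 106 at 2 h and 48 at 48 h, and without replicate 2 they were 58, 135 and 47, alternatives chosen after seeing the data. Fosb gives an example: it read 7.52 at 0.5 h and 7.59 and 7.43 at 2 h in NBTII-FGFR1, and 8.45 at 0.5 h and 5.09 and 5.79 at 2 h in NBTII. Nr4a1 read 8.49 at 0.5 h and 8.99 and 9.03 at 2 h in NBTII-FGFR1, and 10.26 at 0.5 h and 7.04 and 7.64 at 2 h in NBTII. Both genes were thus near their highest level at 2 h in NBTII-FGFR1 and well below it in NBTII, a contrast that was not tested here. Fosl1 was highest at 2 h in both lines (11.23 and 11.66 in NBTII-FGFR1, 11.51 and 11.26 in NBTII) and at 48 h stood at 10.43 and 10.45 in NBTII-FGFR1 and 8.91 and 9.50 in NBTII. Dusp1 had returned to 5.82 and 5.75 in NBTII by 6 h, close to its 0 h array of 5.87. At 48 h Egr1 read 8.04 and 8.05 in NBTII-FGFR1 and 5.33 and 5.37 in NBTII. Cxcl1 at 2 h read 11.27 and 7.22 in NBTII-FGFR1, replicate 1 first, so that the array near the 0.5 h level is the one that correlated best with an array of 0.5 h.

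**Figure D4:**
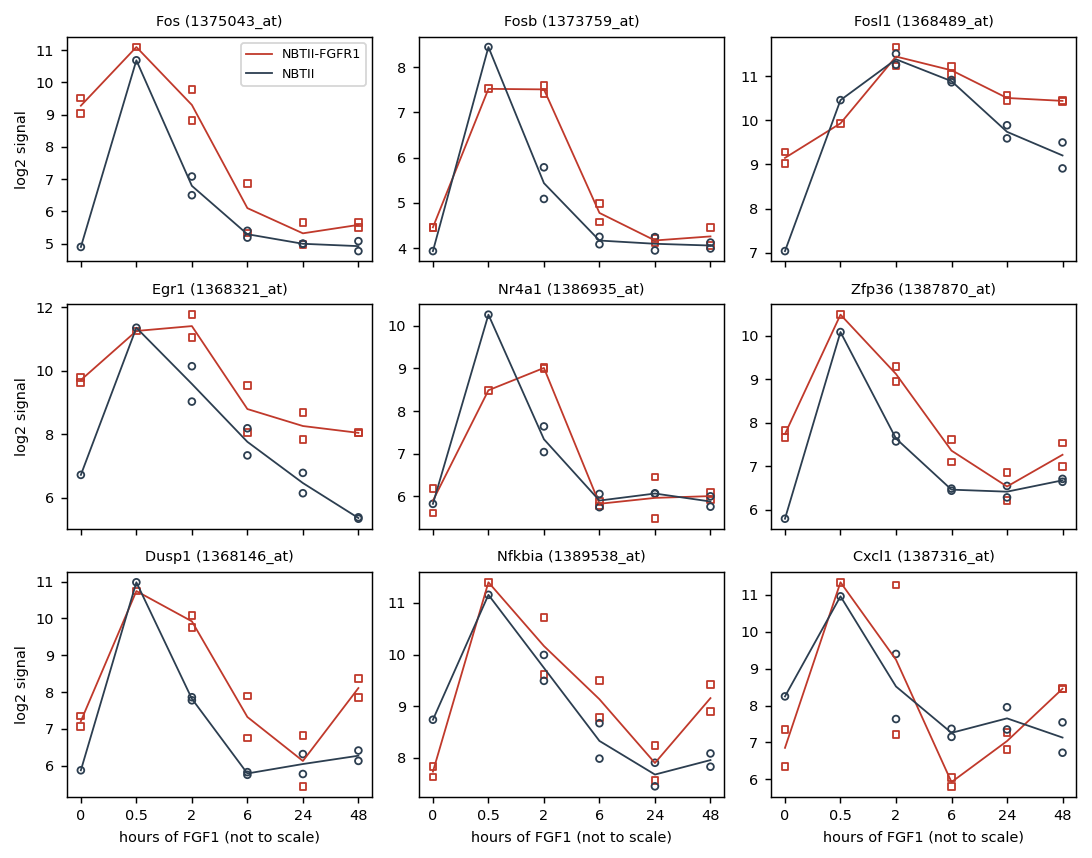
Log2 signal of 9 genes in every array against hours of FGF1 (0 to 48 h, not to scale), with open symbols for arrays and lines through group means, red NBTII-FGFR1 and dark NBTII. Fos, Zfp36, Dusp1, Nfkbia and Cxcl1 were highest at 0.5 h in both lines, and Fosl1 at 2 h in both.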

How the data were processed

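Total RNA of NBTII and NBTII-FGFR1 cells was hybridized to Affymetrix rat arrays, 1 per sample. Values are log2 signal intensities as deposited, which the authors obtained by RMA according to the submitters' processing notes. No RMA version was given in the sources used here. Used as it stands, the table has 15923 probe sets, of which 57 controls were read apart and 15866 were tested with no filter on low values. The platform annotation gives 12783 of them 1 gene symbol, 312 several and 2771 none; no symbol changed when updated through the gene identifiers of the RefSeq table.

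Titles put the arrays in 12 groups by line and time. The titles were followed where they name 2 arrays of NBTII-FGFR1 at 0 h, although the series text says that control cells were not duplicated. Linear models with 12 group means over all 21 arrays came from limma 3.58.1 (R 4.3.3; lmFit, contrasts.fit and eBayes; 9 residual and 5.68 prior degrees of freedom). The contrasts were 0.5 h minus 0 h averaged over the lines, the same within NBTII-FGFR1, and the NBTII-FGFR1 response minus the NBTII response. The threshold was a Benjamini-Hochberg adjusted p-value of 0.05, taken within each contrast over the 15866 probe sets. Groups of 1 array were assumed to vary like the others. As nothing says that arrays came from separate cultures, p-values reflect only how far these samples spread, and that spread may be technical. Their number limits the precision.

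The comparison, the gene lists and the naming rule were chosen with earlier results of these data known. List members were read at their probe set with the highest mean. Named were the 12 largest rises and falls among called, non-overlapping probe sets that moved the same way in each line, the 5 largest each way of the other comparisons, the leading members of each list and 22 fixed genes. Other members are named with their values as examples chosen after these were seen. Promoter windows came from RefSeq (GRCr8). On simulated data with 100 changed probe sets per size, the comparison over both lines recovered 44%, 94% and 99% at log2 changes of 0.5, 1 and 2. Of its calls 3.66% were false. The simulation drew independent normal noise of equal spread in every group, planted equal changes in both lines and held no array or batch effect. Its false share is therefore no error rate for the calls on the real arrays. Tables and figures were made with Python 3.11.15, pandas 2.3.3, numpy 2.4.6 and matplotlib 3.10.9. The alternatives were a filter on low values, repeated quantile normalization, a replicate block, the 5 arrays alone, eBayes with trend and robust, array weights, each array of a pair left out, 2 doubted arrays left out, each line alone, and gene means for lists.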

Additional observations from a re-analysis of the deposited data

Results flagged for a closer look

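The response to 0.5 h of FGF1 differed between the lines, by the limma test of the difference itself (NBTII-FGFR1 response minus NBTII response, adjusted over all probe sets), for 14 named genes. It was negative for Fos (-3.97), Klk6 (-3.12), Hnrnpu (-2.98), Fosl1 (-2.64), Fst (-2.64), Klf6 (-2.03), Pnn (-1.77), Spry2 (-1.40) and Nop58 (-1.06). Values were positive for Snn (2.22), Lgals1 (1.99), Pimreg (1.85), Idh1 (1.81) and Tmsb4x (1.79). Each rests on 1 NBTII array of 0 h and 1 array per line at 0.5 h. All 3 probe sets of Hnrnpu passed (the other 2 at -1.15 and -1.24), as did both of Klf6 (-1.71 at the second), while the second probe sets of Fos (-0.19), Fst (-2.57) and Pnn (-1.53) did not. Without NBTII-FGFR1 0 h replicate 1, whose label is doubted, the difference still passed for Fosl1, Lgals1 and Tmsb4x (adjusted p 0.022, 0.045 and 0.04, limma). The other 11 did not pass without it, at adjusted p between 0.051 (Spry2) and 0.14 (Hnrnpu).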

How the results depend on the processing

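The count over both lines (349) moved to 147 with the 5 arrays alone, which leave 1 residual degree of freedom, and to 653 with array weights; the other settings that kept every array, and the one without both doubted arrays (348), stayed within 1.5 times. Within NBTII-FGFR1 (315) the count was 69 with the 5 arrays alone, 626 with array weights and 116 without both doubted arrays (replicate 1 of NBTII-FGFR1 at 0 h, doubted for its Fgfr1 level, and at 2 h, doubted because it correlated best with an array of 0.5 h). For the line difference (89) these were 0, 309 and 40; with the 5 arrays alone 2482 probe sets had an unadjusted limma p under 0.05. Leaving out 1 array at a time gave 184 to 664, 49 to 502 and 13 to 235 calls for the 3 comparisons. The lowest of each came without NBTII-FGFR1 0 h replicate 1, and the highest without either NBTII-FGFR1 2 h array. A 2 h array enters the 3 comparisons only through the spread between arrays. Its group adds nothing to that spread once either of its arrays is left out. Why the NBTII-FGFR1 arrays of 2 h differ from each other was not tested. Without NBTII-FGFR1 0 h replicate 2 the counts were 324, 170 and 59. For the line difference, 178 were called without either NBTII 2 h array, 28 without either NBTII 48 h array and 33 without either NBTII-FGFR1 48 h array. The single arrays of NBTII at 0 h and of both lines at 0.5 h could not be left out. With the replicate number as a block the counts were 365, 340 and 107; same-numbered arrays deviated together with r above 0.1 in 15 of 36 pairs of groups (-0.13 to 0.35), so the numbers were not taken as pairs. Over 98 called results of single genes, 0 values turned their direction. Most alternatives use the same arrays of 0 and 0.5 h, so this only describes the calls. Of the values, 2167 stayed on their side of the threshold and 263 no longer passed it. Of 301 list members not called over both lines, 21 turned their sign without NBTII-FGFR1 0 h replicate 1, such as Ccn2 (0.03 without it) and Fgfr4 (-0.04), all within 0.118 of 0. Of the list counts 97 moved by over 1.5 times and 1353 did not.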
